A study of Homo sapiens with 8 samples.

Results

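The 10 genes described here encode the core machinery that takes a cell from G1 into S phase. They are the cyclins CCND1, CCND3, CCNE1 and CCNE2, the cyclin-dependent kinases CDK4, CDK6 and CDK2, the kinase inhibitor CDKN1B, the retinoblastoma gene RB1 and the transcription factor E2F1. They were taken by gene symbol as 10 of the 16796 genes counted. The rule uses no measured value, but the members were chosen with earlier results of these data known. Messenger RNA was measured by RNA-seq in LX-2, a human hepatic stellate cell (HSC) line, in 4 control libraries (vehicle, DMSO) and 4 libraries from cells given the O-GlcNAc transferase inhibitor OSMI-1 (OGTi, 50 µM over 24 h). All cells grew in DMEM with 5% fetal bovine serum, and the labels describe 4 biological replicates per group. LX-2 is an established line descended from stellate cells transformed with the SV40 large T antigen, a viral protein known to bind the RB family of proteins and p53, and control and OGTi cells share that background. The comparison asked how OGT inhibition changed the transcriptome of these myofibroblast-like cells.

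In cycling cells, D-type cyclins bind CDK4 or CDK6, and E-type cyclins bind CDK2. Both kinds of complex phosphorylate the retinoblastoma protein RB, which in its underphosphorylated form holds E2F transcription factors inactive. Released E2F factors switch on genes for DNA replication, among them the E-type cyclins and E2F1 itself. The inhibitor p27, encoded by CDKN1B, binds cyclin E-CDK2 and cyclin D-CDK4 complexes. Stellate cells divide little in healthy liver and enter the cell cycle when they become myofibroblasts. Much of this machinery is set by protein phosphorylation and protein degradation, which transcript counts do not measure.

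Library totals ran from 24166756 to 28201215 counts, and the 10 genes took 0.110% to 0.145% of each library. Libraries of the same group differed beyond counting error, with a chi-square per degree of freedom of 8.66 to 36.2. Of 10 stellate and mesenchymal markers, 7 had a mean of at least 10 normalized counts, with a summed level of 177122 to 205974 in control and 131582 to 153269 in OGTi libraries. COL1A1 and VIM made up most of these sums, with means going from 84778 to 43931 and from 95086 to 89632. The rest of the 7 had lower means in OGTi cells too, with the largest proportional fall in COL3A1, from 5102 to 884. DES, LRAT and LUM, which mark quiescent or liver-resident stellate cells and fibroblasts, were near 0 in both groups. The macrophage list summed to 2482 to 4089 in control and 5610 to 9391 in OGTi libraries, nearly all of it CD68, a lysosomal gene, while the leukocyte gene PTPRC stayed at or under 11.5. These sums cover listed genes with a total of at least 10 counts. The endothelial list summed to 47.7 to 91.1 in control and 17.0 to 33.8 in OGTi libraries, and KRT7, the epithelial gene that passed the count minimum, had 67.6 to 141 and 32.1 to 77.1. Most of the endothelial fall was in CDH5, with means of 37.3 and 3.86, while VWF had 26.5 and 19.5. Of the 4 hepatocyte genes 1 (APOA1) was in the count files, and it did not reach the count minimum. The part of these shifts in the results below was not tested.

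E2F factors bind short GC-rich sites near the starts of their target genes. Promoter sequence was read from RefSeq windows on GRCh38.p14 that cover 250 bases before to 50 bases after a transcription start. A window was given for 7 of the 10 genes, the exceptions being CCND1, CCNE2 and CDK2. For 6 of the 7 a window sits at the first base of the MANE (reference) transcript, and the window of RB1 does not. The windows of CCND3, CDK4, CDKN1B and RB1 and 1 of the 2 windows of CDK6 lie inside the annotated span of their gene, which longer transcripts extend upstream, so the CDKN1B sequence below precedes its MANE start but not the first base of the gene. The 4 words TTTCCCGC, TTTCGCGC, TTTGCCGC and TTTGGCGC were searched on both strands, and at least 1 of them was present in 3.31% of the 35116 windows and in 3.99% of the 27305 genes with a window. Among the 7 genes, E2F1 alone held such a word. Its promoter is shown with those of RBL1, POLA2 and CDC7, which also hold one and whose transcripts are described below, and with those of CCNE1, CDK6 and CDKN1B, genes called lower in OGTi cells with none of the 4 words in their windows. Each sequence is the 120 bases before the start, 5′ to 3′ on the gene's strand, with E2F words in capitals.
E2F1, chr20:33686386-33686505, minus strand: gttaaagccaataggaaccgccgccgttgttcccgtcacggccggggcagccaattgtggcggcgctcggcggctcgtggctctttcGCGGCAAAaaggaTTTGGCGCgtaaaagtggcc
RBL1, chr20:37095998-37096117, minus strand: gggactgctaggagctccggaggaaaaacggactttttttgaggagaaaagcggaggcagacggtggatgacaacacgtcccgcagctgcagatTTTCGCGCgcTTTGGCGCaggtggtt
POLA2, chr11:65261842-65261961, plus strand: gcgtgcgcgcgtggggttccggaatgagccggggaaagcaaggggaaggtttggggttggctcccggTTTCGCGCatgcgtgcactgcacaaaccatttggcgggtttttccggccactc
CDC7, chr1:91500992-91501111, plus strand: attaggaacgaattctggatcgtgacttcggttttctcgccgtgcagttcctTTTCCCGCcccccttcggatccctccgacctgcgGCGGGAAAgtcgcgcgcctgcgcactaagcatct
CCNE1, chr19:29811871-29811990, plus strand: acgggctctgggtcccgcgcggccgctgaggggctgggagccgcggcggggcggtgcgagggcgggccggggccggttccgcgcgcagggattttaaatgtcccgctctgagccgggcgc
CDK6, chr7:92836574-92836693, minus strand: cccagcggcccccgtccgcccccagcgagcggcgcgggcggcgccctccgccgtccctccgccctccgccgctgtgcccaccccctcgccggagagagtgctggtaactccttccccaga
CDKN1B, chr12:12717248-12717367, plus strand: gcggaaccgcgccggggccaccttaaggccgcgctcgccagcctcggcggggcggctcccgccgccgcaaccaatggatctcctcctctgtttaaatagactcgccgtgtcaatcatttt
In E2F1 the word TTTGCCGC lay on the opposite strand at positions -33 to -26 relative to the start, and TTTGGCGC lay on the gene's strand at -20 to -13. In RBL1 the words TTTCGCGC and TTTGGCGC sat close together at -26 to -19 and -16 to -9. A word match describes these letters only, and binding of a factor was not measured. Lack of a match, as in CCNE1, does not mean lack of an E2F site. Sites with other letters or outside the windows were not searched.

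OGTi changed most of the 10 genes, in both directions. DESeq2 called 7 of the 10 at a Benjamini-Hochberg adjusted p-value (q) of 0.05 or lower, where 46.6% of all genes with a q were called. CCND1 and CCND3 were higher in OGTi cells, 2 of 10 where 22.7% of all genes were called higher. CDK6, CDKN1B, CCNE1, RB1 and CDK2 were lower, 5 of 10 where 24.0% of all genes were called lower. The median log2 fold change of the 10 genes was -0.17, and that of all genes tested was 0.00. Groups did not overlap for 3 of the 10 genes (CCND1, CDK6 and CDKN1B), or 30.0%, while 38.0% of all genes tested had groups that did not overlap. In bulk RNA, a smaller share of cells in a given phase of the cycle and less transcript per cell cannot be told apart.

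**Figure D1:**
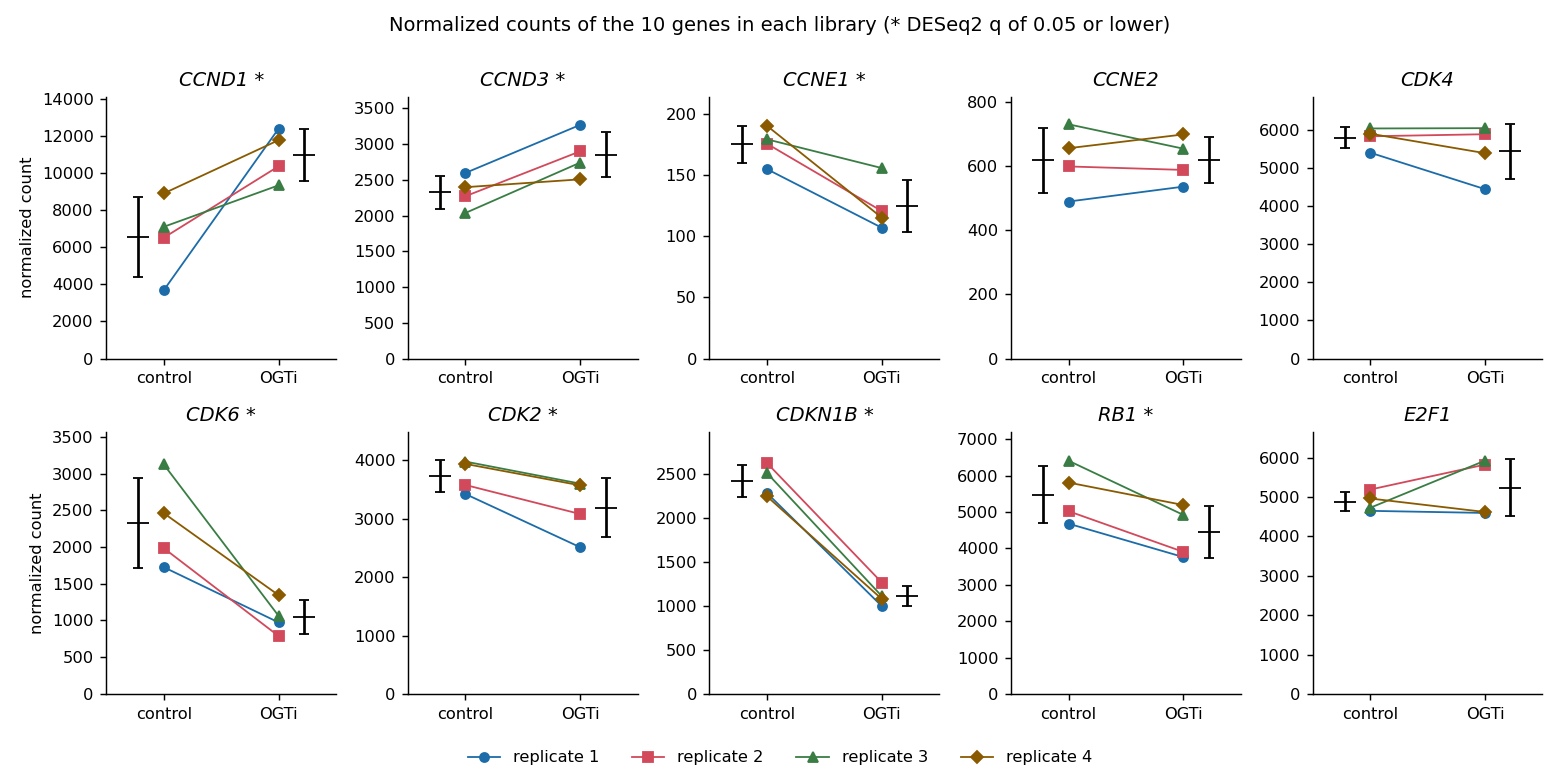
Normalized count (linear axis from 0) of each of the 10 genes in control and OGTi cells, with lines joining libraries of the same replicate number and bars giving mean ± SD over 4 libraries. The lines of CDK6 and CDKN1B fell in all 4 pairs to levels below every control, those of CCND1 rose in all 4 pairs, and those of CDK4, CCNE2 and E2F1 went both ways.

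CCND1 (chr11:69641156-69654474, plus strand) encodes cyclin D1, the D-type cyclin through which growth factor signals commonly reach CDK4 and CDK6. Its normalized counts were 3681, 6511, 7099.6 and 8901 in control replicates 1 to 4, and 12398, 10366, 9338 and 11774 in OGTi replicates 1 to 4. Every OGTi library was above every control library, and the control libraries were spread more widely than the OGTi libraries. The mean rose from 6548 ± 2165 to 10969 ± 1380.2 (SD, n = 4 each), and the log2 fold change from the model was 0.80 ± 0.29 (SE, DESeq2 q = 0.0143). The 4 pairs gave log2 differences of 1.75, 0.67, 0.40 and 0.40, so the rise was largest in replicate 1. Without replicate 1 the log2 fold change was 0.49 (DESeq2 q = 1.07e-08). Leaving out replicate 2 (0.84, DESeq2 q = 0.0872) or replicate 4 (0.93, DESeq2 q = 0.0503) ended the call.

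CCND3 (chr6:41934934-42050357, minus strand) encodes cyclin D3, a related partner of the same kinases. Normalized counts were 2596, 2271, 2036 and 2397 in control cells and 3269.8, 2899.9, 2742 and 2507 in OGTi cells. The groups overlapped, because OGTi replicate 4 was below control replicate 1, but each OGTi library was above the control of its own number. The mean rose from 2325 ± 235 to 2855 ± 320.3 (log2 fold change 0.29 ± 0.08, DESeq2 q = 0.00137). The rise was smallest in replicate 4, at 0.06 on the log2 scale against 0.33 to 0.43 in the others. CCND2, which encodes the remaining D-type cyclin, was barely detected, with means of 8.82 ± 4.68 and 7.59 ± 3.89 normalized counts (DESeq2 q = 0.840).

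CCNE1 (chr19:29811991-29824312, plus strand) encodes cyclin E1, the activating partner of CDK2 at the G1/S boundary, and was the least abundant of the 10 genes. Its normalized counts were 155, 176, 179 and 190.3 in control cells and 107, 121, 156 and 115 in OGTi cells. OGTi replicate 3 reached the level of control replicate 1, and the other OGTi libraries were below all controls. The mean fell from 175 ± 14.8 to 125 ± 21.5 (log2 fold change -0.50 ± 0.20, DESeq2 q = 0.0264), and CCNE1 was lower in 4 of 4 pairs. With 3 pairs the call was kept only without replicate 3 (-0.60), and it was lost without replicate 1 (-0.49, DESeq2 q = 0.0977), replicate 2 (-0.49, q = 0.119) or replicate 4 (-0.43, q = 0.185).

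CCNE2 (chr8:94879770-94896678, minus strand) encodes cyclin E2, which also binds CDK2. Normalized counts were 489, 598, 729.7 and 655 in control cells and 536, 588, 654 and 698 in OGTi cells. The groups covered the same range, and replicate 1 was the lowest in both. The means were 618 ± 101 and 619 ± 71.7, a log2 fold change of 0.01 ± 0.11 with a 95% confidence interval of -0.21 to 0.23 (DESeq2 q = 0.959). The interval leaves out changes of the size estimated for CCNE1, but the CCNE1 interval of -0.89 to -0.11 overlaps it.

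CDK4 (chr12:57747727-57756013, minus strand) and CDK6 (chr7:92604921-92836573, minus strand) encode the kinases that D-type cyclins activate. CDK4 counts were 5401, 5830.0, 6035 and 5898 in control cells and 4443, 5884, 6043 and 5387 in OGTi cells. OGTi replicates 2 and 3 matched their controls closely, and replicates 1 and 4 were lower. The means were 5791 ± 274 and 5439 ± 721 (log2 fold change -0.10 ± 0.07, 95% interval -0.25 to 0.05, DESeq2 q = 0.287). CDK6 counts were 1726, 1985, 3126 and 2462 in control cells and 973, 787, 1061 and 1344 in OGTi cells. All OGTi libraries were below all controls. The CDK6 mean fell from 2325 ± 615 to 1042 ± 232 (log2 fold change -1.15 ± 0.12, DESeq2 q = 1.29e-21), a fall of 54.9% in the model. The 4 pairs gave log2 differences of -0.83, -1.33, -1.56 and -0.87, and the call held under every alternative, with fold changes of -1.25 to -1.01.

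CDK2 (chr12:55966781-55972789, plus strand) encodes the kinase that pairs with cyclins E and A. Its normalized counts were 3425, 3580.1, 3981 and 3941 in control cells and 2512, 3082, 3602 and 3573 in OGTi cells. The groups overlapped, and within each pair the OGTi library was lower. The mean fell from 3732 ± 272 to 3192 ± 512 (log2 fold change -0.24 ± 0.08, DESeq2 q = 0.00748). The log2 difference was -0.45 in replicate 1 and -0.22 to -0.14 in the others. The call was lost with no replicate block, where the log2 fold change was about as large (-0.23, DESeq2 q = 0.104, and -0.22, edgeR q = 0.112), and without replicate 1 (-0.17, DESeq2 q = 0.0808).

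CDKN1B (chr12:12685498-12722369, plus strand) encodes p27, an inhibitor of cyclin E-CDK2. The control libraries had 2288, 2630.3, 2517 and 2251 normalized counts, and the OGTi libraries had 999.8, 1269, 1113 and 1081. The highest OGTi library was well below the lowest control. The mean fell from 2422 ± 182 to 1116 ± 113 (log2 fold change -1.12 ± 0.08, DESeq2 q = 2.20e-41), a fall of 54.0% in the model. This was the most even change among the 10 genes, with log2 differences of -1.19, -1.05, -1.18 and -1.06 in the 4 pairs. The call held under every alternative, with fold changes between -1.14 and -1.09.

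RB1 (chr13:48303744-48599436, plus strand, 27 exons) encodes the retinoblastoma protein. Its normalized counts were 4682, 5025, 6412 and 5812 in control cells and 3762, 3905, 4921 and 5194 in OGTi cells. Replicates 3 and 4 were higher than replicates 1 and 2 in both groups, so the groups overlapped while every pair fell. The mean fell from 5483 ± 779.6 to 4446 ± 718 (log2 fold change -0.31 ± 0.07, DESeq2 q = 7.69e-05), a fall of 19.1% in the model. Among the alternatives the call was lost in edgeR with no replicate block (-0.30, edgeR q = 0.0596).

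E2F1 (chr20:33675477-33686385, minus strand), whose promoter with its E2F words is printed above, encodes a transcription factor that RB restrains. Its normalized counts were 4651, 5191, 4728 and 4965 in control cells and 4598, 5826, 5926 and 4622 in OGTi cells. OGTi replicates 2 and 3 were above all controls and OGTi replicates 1 and 4 were below all controls. The means were 4884 ± 245 and 5243 ± 732 (log2 fold change 0.09 ± 0.08, 95% interval -0.07 to 0.25, DESeq2 q = 0.372).

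**Figure D2:**
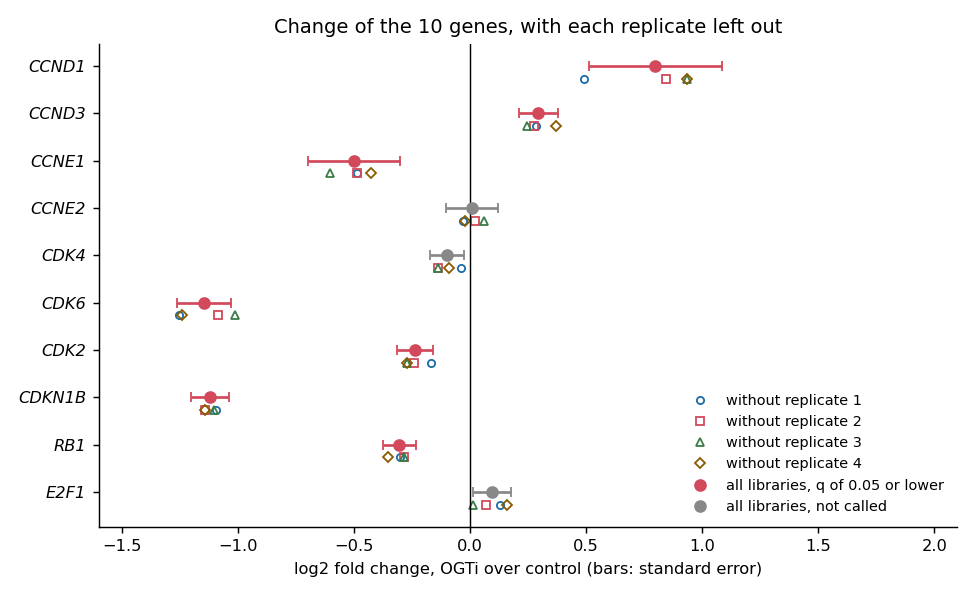
Log2 fold change of OGTi over control for each of the 10 genes, with filled points and standard errors from all 8 libraries and open symbols from fits that leave out the pair of a replicate. CDK6 stayed between -1.25 and -1.01 and CDKN1B between -1.14 and -1.09, while CCND1 moved between 0.49 without replicate 1 and 0.93 without replicate 4.

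The balance between partners was compared by the log2 ratio of counts within a library, which does not depend on how libraries were scaled. There were 5 such ratios, each tested with a two-sided exact permutation test over the 70 ways to divide 8 libraries 4 against 4, in which the smallest possible p is 0.0286. The CDK6 to CDK4 ratio went from -1.35 ± 0.31 in control to -2.40 ± 0.39 in OGTi cells, a difference of -1.05, lower in 4 of 4 pairs (exact p = 0.0286, adjusted p = 0.0714 over 5 ratios). The CCNE2 to CCNE1 ratio went from 1.81 ± 0.15 to 2.32 ± 0.22, a difference of 0.51, higher in 4 of 4 pairs (exact p = 0.0286, adjusted p = 0.0714). These were the 2 ratios without overlap between groups, and both reached the smallest p. With only 2 of 5 ratios at that smallest p, the adjusted p cannot reach 0.05. Missing 0.05 after adjustment therefore reflects both this smallest p and the other ratios not reaching it. The E2F1 to RB1 ratio went from -0.16 ± 0.22 to 0.24 ± 0.31, higher in 4 of 4 pairs (exact p = 0.0857, adjusted p = 0.143). The CDK2 to CDK4 ratio differed by -0.14 (exact p = 0.143, adjusted p = 0.171). The CCND3 to CCND1 ratio differed by -0.51 (exact p = 0.171, adjusted p = 0.171), and was -0.50 in control replicate 1 and -1.89 to -1.52 in the rest of the controls. With adjustment, 0 of the 5 ratios passed, and 2 had an unadjusted p under 0.05.

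Levels of different genes were compared as normalized counts per kb of the reference (MANE) transcript. Which transcript forms these cells used was not examined. In control cells CDK4 had the highest level, 3105 ± 147, followed by E2F1 (1816 ± 91.0), CDK2 (1666 ± 122), CCND1 (1545 ± 511), RB1 (1149.9 ± 164), CCND3 (1148 ± 116) and CDKN1B (1004 ± 75.6). CCNE2 (231 ± 37.9), CDK6 (199 ± 52.7) and CCNE1 (89.6 ± 7.58) were far lower. From E2F1 down to CDKN1B each gene overlapped its neighbour in the order, as CDK6 did CCNE2. In OGTi cells CCND1, at 2588 ± 326, moved up to a level that overlapped that of CDK4 (2917 ± 386), and CDKN1B fell to 463 ± 46.7, apart from RB1 above it (932 ± 151). CDK6 fell to 89.3 ± 19.9 and then overlapped CCNE1 (63.8 ± 11.0).

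On the same per-length scale CDK6 made up 5.98% ± 1.26 of the summed CDK4 and CDK6 level in control and 3.01% ± 0.76 in OGTi cells. This share rests on reference lengths of 11663 bases for CDK6 and 1865 for CDK4. Without length, CDK4 still had the higher normalized counts, 5791 against 2325 in control and 5439 against 1042 in OGTi cells. Per length, CCND1 made up 56.1% ± 10.8 of the summed D-type cyclin level in control and 64.6% ± 3.17 in OGTi cells. CCNE1 made up 28.1% ± 2.13 of the E-type cyclin level in control and 21.6% ± 2.53 in OGTi cells. RB1 made up 52.0% ± 1.43 of the summed level of RB1, RBL1 and RBL2 in control and 54.4% ± 1.35 in OGTi cells. E2F1 made up 32.2% ± 1.08 of the summed level of E2F1 to E2F8 in control and 36.4% ± 3.02 in OGTi cells. These shares are descriptions without a test.

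**Figure D3:**
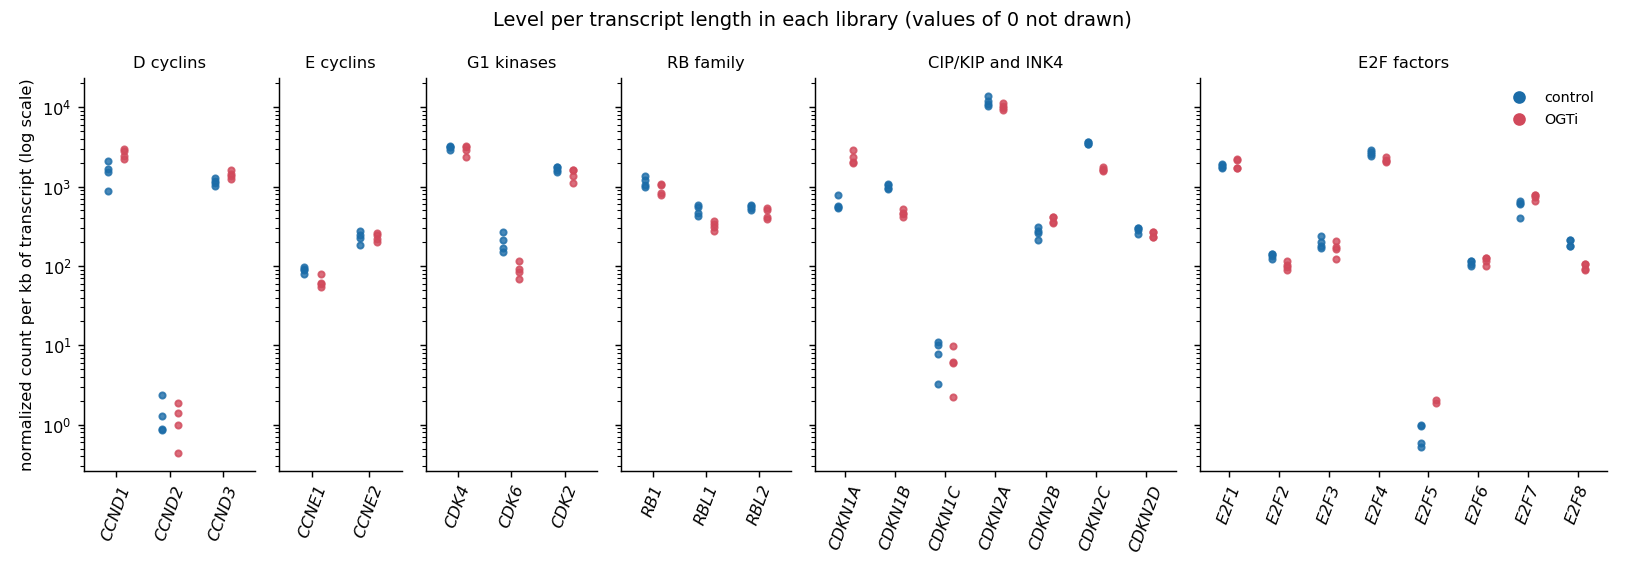
Normalized count per kb of transcript (log axis) in each library for the cyclins, G1 kinases, RB family, CDK inhibitors and E2F factors, with control points left of OGTi points and libraries at 0 not drawn. CDKN1A rose past CDKN1B in OGTi cells, CDK6 stayed far below CDK4 in both groups, and CCND2, CDKN1C and E2F5 were near the bottom of the scale.

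Beyond the 10 genes, 37 other regulators of the G1/S step were listed by role. DESeq2 called 3 higher and 16 lower (51.4% called), 18 were not called, and the median log2 fold change was -0.20. Of all genes, 46.6% were called, 22.7% higher and 24.0% lower. Of the 16 lower genes, 14 were lower in all 4 pairs, which adds no separate support because the calls rest on the same pairs.

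Among 6 further CDK inhibitors, 2 rose and 2 fell, where 22.7% of all genes were called higher and 24.0% lower. CDKN1A, which encodes p21 and belongs with p27 to the CIP/KIP family, had 1138, 1218, 1178 and 1653 normalized counts in control cells and 4154, 4357, 4918 and 6063 in OGTi cells. It rose in every pair, by 1.91 ± 0.08 on the log2 scale (DESeq2 q = 1.91e-134), while CDKN1B fell. The count ratio of CDKN1A to CDKN1B was 0.497, 0.463, 0.468 and 0.734 in control cells and 4.16, 3.43, 4.42 and 5.61 in OGTi cells, a comparison chosen after its values were seen. Per transcript length, CDKN1B made up 61.9% ± 5.28 of the CIP/KIP level in control and 16.9% ± 2.79 in OGTi cells.

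The INK4 inhibitors, which bind CDK4 and CDK6, moved apart. CDKN2C (p18) fell from 3507 ± 123 to 1649 ± 93.5 normalized counts (log2 fold change -1.09 ± 0.08, DESeq2 q = 2.06e-40). CDKN2B (p15) rose from 1021 ± 156 to 1479 ± 132 (log2 fold change 0.54 ± 0.09, DESeq2 q = 6.63e-08). CDKN2A, chosen after its values were seen, had the highest level of the INK4 genes and a log2 fold change of -0.20 ± 0.07 (DESeq2 q = 0.00778). Its locus gives p16 and ARF transcripts, which gene counts do not separate.

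Both other members of the RB family were called lower, as RB1 was, where 24.0% of all genes were called lower. RBL1, which encodes p107 and holds a pair of E2F words before its start, fell from 2890.2 ± 421 to 1829 ± 236 (log2 fold change -0.66 ± 0.08, DESeq2 q = 3.26e-14). RBL2, which encodes p130, the family member most associated with quiescent cells, fell from 2661 ± 171 to 2219.7 ± 352 (log2 fold change -0.27 ± 0.08, DESeq2 q = 0.00287). The RBL2 groups overlapped, and the call was lost without replicate 2 (-0.24, DESeq2 q = 0.0604) and in edgeR with no replicate block (-0.26, edgeR q = 0.0605).

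Of the 9 other E2F and DP factors, 1 rose and 5 fell, beside 22.7% of all genes called higher and 24.0% lower. E2F7 and E2F8 encode related repressors of E2F targets and went opposite ways. E2F7 rose from 3251 ± 626 to 4234 ± 316 (log2 fold change 0.40 ± 0.09, DESeq2 q = 1.74e-05). E2F8 fell from 725 ± 76.1 to 361 ± 34.3 (log2 fold change -1.003 ± 0.124, DESeq2 q = 1.05e-14). E2F4, the E2F most abundant per length and a partner of p107 and p130, fell from 5545 ± 445 to 4571 ± 271 (-0.28 ± 0.08, DESeq2 q = 0.00204), a call that ended when replicate 2 (-0.24, q = 0.0522) or replicate 4 (-0.23, q = 0.0580) was left out. TFDP1, E2F2 and E2F3 were the remaining factors called lower, and were chosen after their values were seen. Their log2 fold changes were -0.56 (DESeq2 q = 2.51e-17), -0.41 (DESeq2 q = 0.000815) and -0.26 (DESeq2 q = 0.0414). E2F3 was close to the threshold, with overlapping groups and a fall in 3 of 4 pairs. E2F5 had a mean under 10 normalized counts, too few for a q.

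Among 5 turnover genes only SKP2 was called, where 46.6% of all genes with a q were called. SKP2 encodes the F-box protein that targets p27 for degradation, and it fell from 5824 ± 868 to 2813 ± 275 normalized counts (log2 fold change -1.04 ± 0.08, DESeq2 q = 1.29e-38). Transcripts of p27 and of the protein that marks it for degradation thus both fell, in 4 of 4 pairs each. MYC, which encodes a transcription factor upstream of G1 entry, had 3061 ± 403 and 2625 ± 335 normalized counts (-0.22 ± 0.09, DESeq2 q = 0.0256), a call lost without replicates 1, 2 or 4 and in both tools with no replicate block, with q values of 0.0627 to 0.246. CCNA2, the cyclin A2 gene, and MYBL2, an activator of late cell-cycle genes, both had a log2 fold change of -0.89 (DESeq2 q = 1.24e-25 and 1.37e-22). CCNH, a subunit of the CDK-activating kinase, had a log2 fold change of -0.82 (DESeq2 q = 1.11e-20). These 3 genes were chosen after their values were seen. MYBL2 was the 1 gene called among 6 of the DREAM and MuvB complexes, which repress or activate cell-cycle promoters, and CCNH was the 1 called among 4 that activate CDKs. Cyclin C (CCNC) and its partner CDK3, which act at the exit from quiescence and were also chosen after their values were seen, were both called lower, at -0.31 ± 0.10 (DESeq2 q = 0.00845) and -0.69 ± 0.28 (DESeq2 q = 0.0296, groups overlapping) on the log2 scale.

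The E2F-responsive replication genes, 40 in number, moved both ways. DESeq2 called 7 higher and 18 lower (62.5% called, 46.6% of all genes), 15 were not called, and the median log2 fold change was -0.08. Over all genes the shares were 22.7% higher and 24.0% lower. The 7 higher genes were higher in all 4 pairs, and 17 of the 18 lower genes were lower in all 4 pairs. The calls rest on these same pairs, so this is not separate support. PCNA, the sliding clamp of the replication fork and chosen after its values were seen, had 8207 ± 544 and 8710.2 ± 449 normalized counts (0.09 ± 0.07, DESeq2 q = 0.305).

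The largest rises were in POLA2, a subunit of DNA polymerase alpha, ORC6, a subunit of the origin recognition complex, and CLSPN, a checkpoint mediator. POLA2 had 2817, 2922, 2902 and 2885 normalized counts in control cells and 4088, 4270.0, 4435 and 4023 in OGTi cells. This was a rise of 0.54 ± 0.07 on the log2 scale (DESeq2 q = 1.29e-13) with no overlap. ORC6 rose by 0.51 ± 0.09 (DESeq2 q = 3.80e-07) and CLSPN by 0.50 ± 0.08 (DESeq2 q = 5.31e-09). The largest falls were in CDC7, a kinase that fires origins, GINS1, a part of the replicative helicase, and MCM5, a subunit of its MCM ring. CDC7 had 644, 698, 734 and 673 normalized counts in control cells and 520.0, 341, 507 and 481 in OGTi cells. This was a log2 fold change of -0.59 ± 0.13 (DESeq2 q = 3.90e-05) with no overlap. GINS1 had a log2 fold change of -0.59 ± 0.09 (DESeq2 q = 2.08e-10) and MCM5 of -0.51 ± 0.07 (DESeq2 q = 5.93e-13).

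An E2F word was present in the windows of 21 of the 35 replication genes with a window (60.0%), and in 6 of 32 other G1/S regulators (18.8%). Of the 21 genes with a word, 4 were called higher and 13 lower, with a median log2 fold change of -0.21. Of the 14 without, 3 were called higher and 3 lower, with a median of 0.03, and of all genes 22.7% were called higher and 24.0% lower. POLA2, which rose, and CDC7, which fell, are both among the genes with a word, as their sequences above show. No test was made of this split.

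**Figure D4:**
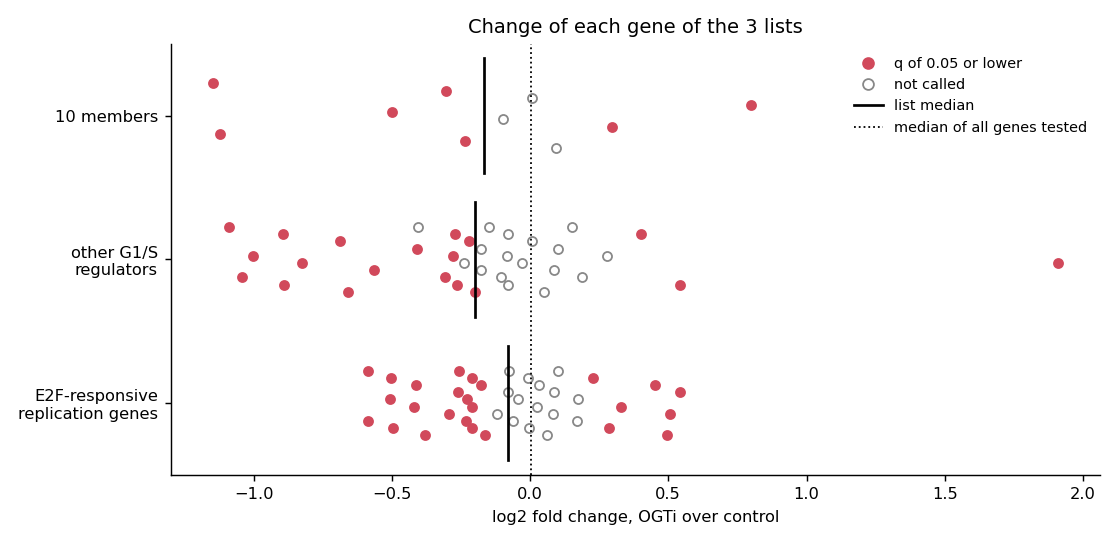
Log2 fold change of OGTi over control for each of the 10 genes, the 37 other G1/S regulators and the 40 E2F-responsive replication genes, with filled points for a DESeq2 q of 0.05 or lower. List medians (bars) were -0.17, -0.20 and -0.08, the median of all genes tested was 0.00 (dotted line), and CDKN1A at 1.91 stood far to the right.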

How the data were processed

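Strand-specific libraries were made from polyadenylated RNA. Per the labels and the study's methods, the authors aligned reads to hg38 with Bowtie2 2.3.5.1 and deposited RSEM 1.3.1 expected counts (estimated counts per gene, not scaled for depth). A deposited comparison table, made with DESeq2 1.36.0, holds log2 fold changes with standard errors, a Wald score and p-values, and was not used. Expected counts were rounded, genes with a total under 10 were left out, and 14895 genes were fitted in R 4.3.3 with DESeq2 1.42.0 (Wald test, replicate number as a block as in the study's methods, 14028 genes with a q). edgeR 4.0.16 was an alternative. Pairing was checked by correlating deviations from group means over 10994 genes: 0.372, 0.391, 0.165 and 0.327 for replicates 1 to 4, while control 3 with OGTi 4 gave 0.343 and control 4 with OGTi 3 gave 0.255, so replicates 3 and 4 exchanged would correlate at least as well and their order rests on the labels. The DESeq2 fit was tried on simulated counts with 200 genes changed, the same dispersion for all genes and no replicate effect. It recovered 98% of changes of 1 on the log2 scale and 73% of 0.5, and 3.93% of its calls were false. These rates need not hold for the real libraries. Exons of CCND1, CCNE2, CDK4, CDK6 and CDK2 overlap genes on the other strand, and the counting used strand. The members and lists were chosen with earlier results of these data known. Genes named were the members, 6 listed by name, the 3 largest called changes per direction and list (mean of at least 100), and any with a mean under 10. The labels name no sequencing batch. Alternatives were no block, edgeR, TMM factors, other count filters and leaving out each replicate.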

Additional observations from a re-analysis of the deposited data

Results flagged for a closer look

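Among the control libraries, replicate 4 stood apart for CDKN1A, with 1653 normalized counts where replicates 1 to 3 had 1138 to 1218. The gap to its nearest neighbour was 0.844 of the range of the group, above the 95% critical value of Dixon's test for 4 samples. This was the 1 gap past that value among 66 groups of 4 libraries examined, and chance gives about 1 in 20. The OGTi library of the same replicate number was also the highest of its group, at 6063.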

How the results depend on the processing

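Of the 10 genes, the number called higher was 1 to 2 when each replicate was left out, with 1 (CCND3) without replicate 2 or replicate 4. The number called lower was 3 to 5, with 3 without replicate 1, and 3 in edgeR with no replicate block. Without the replicate block DESeq2 called 6 of the 10 and 6307 of all genes. The other G1/S regulators called were 12 to 18 when a replicate was left out, of which 9 to 14 were lower, with the fewest (12, and 9 lower) without replicate 2. The replication genes called lower were 10 to 16, with 10 without replicate 4. Fewer libraries enter these fits. Over all genes, 6541 were called with all libraries and 5127 to 5690 with a replicate left out, the fewest without replicate 2. The log2 fold change of CCNE2 turned to -0.030 without replicate 1 and -0.019 without replicate 4, and over the replicates left out it ran from -0.030 to 0.062. That of CCND2 turned to 0.13 without replicate 1 and ran from -0.56 to 0.13. None of these values was called. Of 100 values of the 10 genes under the alternatives, 89 kept their direction and side of the threshold, 9 lost the call and these 2 of CCNE2 turned. None of the 5 ratios passed after adjustment under any alternative, which is in part set by the smallest p that so few libraries allow. The paired sign-flip test cannot go below an exact p of 0.125, nor 3 against 3 libraries below 0.1, so these say nothing of stability. The lowest counts among the 10 genes were those of CCNE1, 107 to 190.3 normalized.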
